A study of Mus musculus with 4 samples.

Results

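The 10 genes described here encode granule and cytosolic proteins of the neutrophil: Elane, Prtn3, Mpo and Ctsg of the azurophil granule, Ltf, Ngp, Camp and Lcn2 of the specific granule, and the cytosolic pair S100a8 and S100a9. They were taken as rows of the gene count matrix by their names, and all 10 were found, each on 1 row, among 31053 genes, of which 22515 had at least 1 count. The counts came from a single-cell library of the tibia of 1 male mouse at postnatal day 6, in which the 4 sequencing entries held 1 library. The mouse carried Col10a1Cre and the Rosa26-Tdtomato reporter and was heterozygous for Irx3 (Irx3 +/Δ) and Irx5 (Irx5 +/-), and the labels call it the Irx3/5 heterozygous control. The Cre was driven by Col10a1, a gene of hypertrophic chondrocytes, so the reporter marks these cells and their descendants and not the blood lineages. The study writes the Irx3 genotype as +/ΔHC, a notation it also uses for Mmp14 deleted by this Cre. The Irx3 deletion is hence read here as limited to hypertrophic chondrocytes and their descendants. Cells of the proximal and distal parts of 2 tibiae were freed with dispase and collagenase, with no sort described, and marrow cells were captured beside cartilage and bone. A single library of a single mouse has no replicates, so no difference was tested, and the intervals given are exact 95% intervals of counting error alone.

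Neutrophils are made in the marrow through a fixed series of stages, and their granules are filled with whatever proteins the cell makes at that stage. Promyelocytes make the serine proteases and myeloperoxidase of azurophil granules, myelocytes and metamyelocytes make the lactoferrin, cathelicidin and lipocalin of specific granules, and later cells make gelatinase granules and secretory vesicles. The S100A8 and S100A9 proteins form calprotectin, a metal-binding heterodimer of the cytosol that is among the most abundant proteins of the mature cell, and monocytes make it too.

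Elane (neutrophil elastase), Prtn3 (proteinase 3), Mpo (myeloperoxidase) and Ctsg (cathepsin G) lie, in GENCODE M21 on GRCm38, at chr10:79886247-79888215 (plus strand, 5 exons), chr10:79874476-79883174 (plus, 5 exons), chr11:87793581-87804413 (plus, 14 exons) and chr14:56099881-56102574 (minus, 5 exons). Prtn3 and Elane are neighbours, 3072 bases apart. Ltf (lactoferrin), Ngp (neutrophilic granule protein) and Camp (cathelicidin) lie on one chromosome at chr9:111019271-111042767 (plus, 17 exons), chr9:110419747-110423012 (plus, 4 exons) and chr9:109847379-109849617 (minus, 4 exons), with 596258 bases between Ngp and Ltf and 570129 between Camp and Ngp. Lcn2 (lipocalin 2, which binds bacterial siderophores) lies at chr2:32384633-32388252 (minus, 6 exons). S100a8 at chr3:90668978-90670035 (plus, 3 exons) and S100a9 at chr3:90692632-90695721 (minus, 3 exons) are 22596 bases apart. The RefSeq start sites of Ctsg and S100a9 coincide with the starts of these GENCODE spans on the gene's strand, and those of the other genes lie inside the spans. Prtn3 overlaps Plppr3, and Mpo overlaps Gm11505, both on the minus strand.

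Promoter sequences, from 250 bases before to 50 bases after the start site in RefSeq (GRCm38.p6), were searched on both strands for 2 short motifs of factors that act in this lineage, the C/EBP core TTNNGNAA and the PU.1 core GAGGAA. The azurophil genes and the specific granule genes differed along the stages described next, and a pair of each is shown. The sequences run 5′ to 3′ on the strand of the gene, with matches in capitals, and cover chr10:79886062-79886361 (plus strand) for Elane, chr10:79879417-79879716 (plus) for Prtn3, chr9:110419558-110419857 (plus) for Ngp and chr2:32387690-32387989 (minus) for Lcn2.
Elane: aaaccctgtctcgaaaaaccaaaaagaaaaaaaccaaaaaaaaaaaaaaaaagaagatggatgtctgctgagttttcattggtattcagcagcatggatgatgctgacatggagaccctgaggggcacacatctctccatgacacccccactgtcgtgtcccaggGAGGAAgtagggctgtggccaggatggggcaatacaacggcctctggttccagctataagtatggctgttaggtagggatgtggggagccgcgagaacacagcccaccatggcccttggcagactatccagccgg
Prtn3: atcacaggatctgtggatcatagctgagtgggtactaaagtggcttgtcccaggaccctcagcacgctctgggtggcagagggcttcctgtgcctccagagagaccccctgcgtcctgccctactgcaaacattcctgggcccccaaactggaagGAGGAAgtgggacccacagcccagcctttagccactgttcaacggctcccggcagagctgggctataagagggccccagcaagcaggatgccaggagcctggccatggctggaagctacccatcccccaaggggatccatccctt
Ngp: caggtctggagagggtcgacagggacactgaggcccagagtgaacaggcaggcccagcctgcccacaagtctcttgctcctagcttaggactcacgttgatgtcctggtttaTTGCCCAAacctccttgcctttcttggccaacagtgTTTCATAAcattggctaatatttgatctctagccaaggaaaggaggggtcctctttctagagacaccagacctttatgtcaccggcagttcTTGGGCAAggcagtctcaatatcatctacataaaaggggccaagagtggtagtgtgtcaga
Lcn2: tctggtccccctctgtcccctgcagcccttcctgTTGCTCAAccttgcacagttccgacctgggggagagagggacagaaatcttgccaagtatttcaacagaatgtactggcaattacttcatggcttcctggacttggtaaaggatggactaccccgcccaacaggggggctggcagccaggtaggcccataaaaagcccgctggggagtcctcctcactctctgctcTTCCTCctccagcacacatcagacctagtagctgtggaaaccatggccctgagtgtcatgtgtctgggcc
The PU.1 core was present in 7 of 10 promoters, among them all 4 azurophil genes, in each of which it read GAGGAA on the gene's own strand. It began at position -85 from the start site in Elane, -95 in Prtn3, -247 and -224 in Mpo and -216 in Ctsg. The C/EBP core was present in 5 of 10, namely Ltf, Ngp, Lcn2, S100a8 and S100a9, with 3 matches in Ngp at -138, -102 and -11, and in none of the azurophil promoters. Of 32851 promoters of the same length, 28.3% held the PU.1 core, 40.7% the C/EBP core and 11.8% both, against 3 of the 10 genes with both (Ltf, Lcn2 and S100a8). Camp held neither. A match is a stretch of letters, and neither a match nor its absence was tested as a site of binding.

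Of 14181 barcodes with 500 to 85279 UMIs (molecular identifiers, of which each captured transcript receives 1), 10706 cells were kept, with a median of 10903 UMIs, and 30 clusters were made with the 10 genes left out. A total of 1628 cells formed the neutrophil lineage in 4 clusters. The first was promyelocyte-like (392 cells, median 16412 UMIs), led by Ms4a3, Nkg7 and Prss57. The second was myelocyte-like (566 cells, 10768.5 UMIs), led by Chil3 and the stefins Stfa3 and Stfa2l1. Both other clusters had Retnlg, a late neutrophil marker, among their leading genes, and they are called here Ly6g-rich late (270 cells, 4129.5 UMIs) and Il1r2-rich late (400 cells, 1916.5 UMIs). The names were placed from marker lists without any of the 10 genes, by a rule given below. The Ly6g-rich cluster had a higher mean z-score for the myelocyte list (2.62) than for the late neutrophil list (2.11). It was named late by the override of that rule, set after the clusters were known, since 2 of its leading genes were late neutrophil markers. All 6 promyelocyte markers were highest in the promyelocyte-like stage and all 9 late neutrophil markers in a late stage, while the 6 myelocyte markers were split between the myelocyte-like (3) and the Ly6g-rich late (3) cells. Of the 6 monocyte markers, 4 were highest among the stages in promyelocyte-like cells, with Ly6c2 at 811 UMIs per 1000000 UMIs of the class (CPM) against 935 in monocyte-like cells, and their part in the results was not tested. Late cells were small in RNA content: 95.4% of promyelocyte-like cells but 7.04% of Ly6g-rich and 0.75% of Il1r2-rich late cells reached 1600 genes, the minimum that the study applied to skeletal cells.

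Together the 10 genes took up a large and changing part of the transcripts of these cells. They held 6.34% of the UMIs of promyelocyte-like cells, 29.6% of those of myelocyte-like cells, 26.6% of those of Ly6g-rich late cells and 12.2% of those of Il1r2-rich late cells. The lineage carried 2763131 of the 3107365 UMIs of the 10 genes in all kept cells. In erythroid cells, which should lack them and serve here as the measure of free RNA, the 10 genes held 0.0222% of UMIs.

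The azurophil genes were high in promyelocyte-like cells and low in late cells. Elane was at 5586 CPM (5529 to 5642) in promyelocyte-like, 328 CPM in myelocyte-like, 9.39 CPM in Ly6g-rich late and 19.1 CPM in Il1r2-rich late cells. Prtn3, which encodes a close relative of elastase, was at 8170, 497, 11.9 and 35.9 CPM in the same order. Mpo, which makes hypochlorous acid, was at 4460, 112, 19.6 and 56.2 CPM. Ctsg, a protease with chymotrypsin-like specificity, was at 2347, 26.6, 5.12 and 14.3 CPM. All 4 genes were highest in the promyelocyte-like stage among the stages. The share of all tested genes that were higher there than in late cells is given below. Over all clusters, Ctsg was highest in a basophil or mast cell-like cluster when cells were limited to 5% mitochondrial UMIs. The summed azurophil level was higher in promyelocyte-like than in pooled late cells by 8.02 on the log2 scale (7.80 to 8.25), and the genes ranged from 7.0 (Mpo) to 8.70 (Elane). This value lay between 7.36 and 8.80 when either late cluster stood alone.

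Late cells were set against erythroid cells in 2 ways, which differed. By cell, the azurophil counts of late cells did not exceed those of erythroid cells. Elane averaged 0.0407 UMIs per cell in Ly6g-rich and 0.0400 in Il1r2-rich late cells, against 0.0546 in erythroid cells (median depth 8405 UMIs). Mpo averaged 0.0852 and 0.118 UMIs per cell in the late clusters against 0.119 in erythroid cells. Per UMI, the Il1r2-rich cells were higher, with Mpo at 56.2 CPM (41.3 to 74.7) against 12.5 CPM (10.6 to 14.6). When 1000 UMIs were drawn at random from every cell, Mpo was found in 6.57% (4.33 to 9.47) of Il1r2-rich late, 3.33% of Ly6g-rich late and 1.38% (0.822 to 2.18) of erythroid cells. The part of free RNA in the late values was not tested.

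Within the myelocyte-like stage the genes differed in how far they were below the earlier stage. The log2 difference from promyelocyte-like cells was -4.09 (-4.15 to -4.03) for Elane and -4.04 (-4.09 to -3.99) for Prtn3, whose intervals overlapped. It was -5.32 for Mpo and -6.46 (-6.69 to -6.25) for Ctsg. As ratios of UMIs, Mpo per Elane was 0.799 in promyelocyte-like and 0.340 (0.312 to 0.370) in myelocyte-like cells, and Ctsg per Elane was 0.420 and 0.0811 (0.0691 to 0.0947). Prtn3 per Elane was nearly level between the pooled stages, at 1.46 and 1.51, but it differed among the myelocyte-like sub-clusters described below.

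The specific granule genes had their highest levels in the myelocyte-like or the Ly6g-rich late stage. Ltf, which binds iron, was at 27.3 CPM (23.5 to 31.5) in promyelocyte-like, 6009 CPM in myelocyte-like, 8628 CPM in Ly6g-rich late and 248.7 CPM in Il1r2-rich late cells. Ngp, whose protein is related to the cathelicidins, was at 1118, 35572, 30057 and 1721 CPM. Camp, the precursor of an antimicrobial peptide, was at 6988, 52734, 24151 and 1381 CPM. Lcn2 was at 178, 9414, 11463 and 1774 CPM. Ngp and Camp were thus highest in myelocyte-like cells, and Ltf and Lcn2 in Ly6g-rich late cells. At resolution 0.6, however, Ltf and Lcn2 were highest in a myelocyte-like cluster. They were so too with at least 1600 genes, where no late cluster was left and a late maximum could not occur. The specific granule sum was higher in myelocyte-like than in promyelocyte-like cells by 3.64 on the log2 scale (3.63 to 3.65). This difference was 2.18 when cells were limited to 5% mitochondrial UMIs, which left 208 promyelocyte-like cells.

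The genes of this group differed in how low they were in promyelocyte-like cells. The log2 difference between the myelocyte-like and the promyelocyte-like stage was 2.92 for Camp, 4.99 for Ngp, 5.72 for Lcn2 and 7.78 (7.58 to 8.0) for Ltf. Camp per Ngp was 6.25 (6.10 to 6.41) in promyelocyte-like cells, 1.48 in myelocyte-like cells, and 0.804 and 0.803 in the Ly6g-rich and Il1r2-rich late cells. From Ly6g-rich to Il1r2-rich late cells Ltf was lower by 5.12 on the log2 scale, Ngp by 4.13, Camp by 4.13 and Lcn2 by 2.69 (2.61 to 2.77). The fold of Lcn2 between the late clusters was hence 6.46 where that of Ltf was 34.7.

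The S100 pair was found at every stage. S100a8 was at 16723 CPM in promyelocyte-like, 80145 CPM in myelocyte-like, 79177 CPM in Ly6g-rich late and 47461 CPM in Il1r2-rich late cells. S100a9 was at 17791, 110759, 112211 and 69757 CPM. The middle stages were nearly level, with a log2 difference of 0.004 (-0.003 to 0.010) for the summed pair between Ly6g-rich late and myelocyte-like cells. Pooled late cells were higher than promyelocyte-like cells by 2.22 (2.21 to 2.23) on the log2 scale, and by 1.06 when cells were limited to 5% mitochondrial UMIs. Over all clusters, S100a8 and S100a9 were each highest in a myelocyte-like or a late cluster, depending on the cell filter and the clustering. In Il1r2-rich late cells the pair was lower than in Ly6g-rich ones by 0.71, against 3.86 for the specific granule sum.

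**Figure D1:**
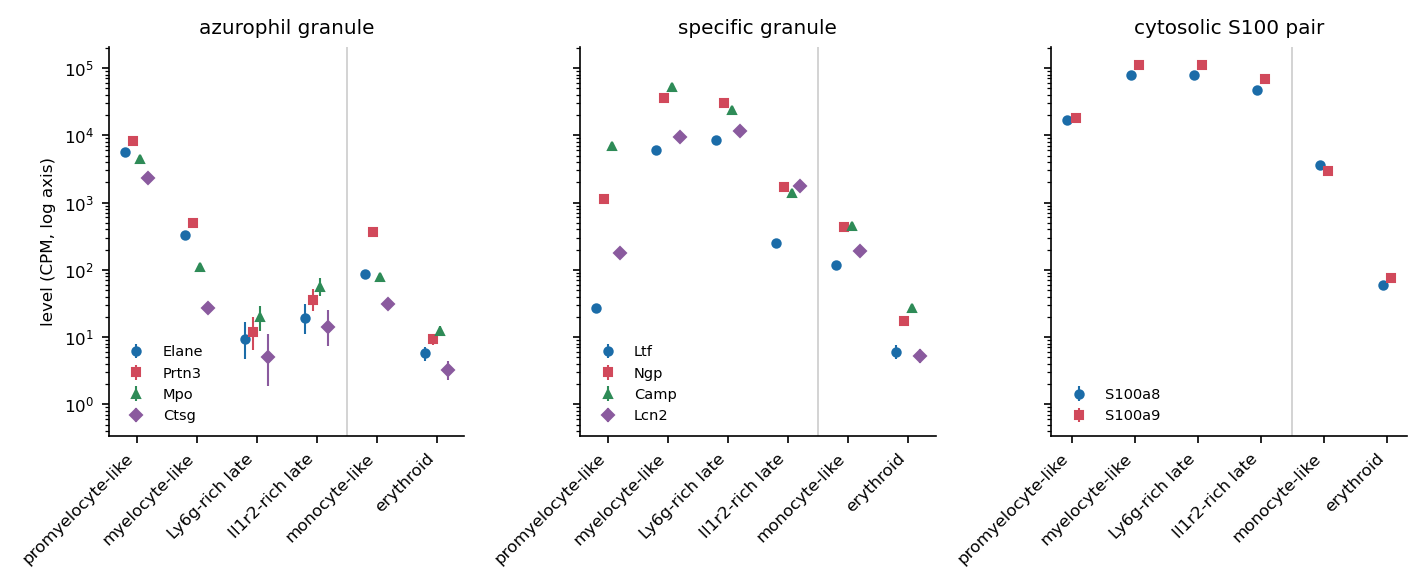
Level of each of the 10 genes in CPM on a log axis (points, with exact 95% Poisson intervals as bars) in the 4 stages of the neutrophil lineage, left of the grey line, and in monocyte-like and erythroid cells, right of it. The azurophil genes sit highest in promyelocyte-like cells, the specific granule genes in myelocyte-like or Ly6g-rich late cells, and S100a8 and S100a9 are at 16723 CPM or more in every stage.

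Since these stages differ in many genes, the members are set beside all genes tested, taken as those with at least 50 CPM in either class and called at a 2-fold difference of CPM. Of 3164 genes, 40.1% were at least 2-fold higher in promyelocyte-like than in pooled late cells, and 4 of the 10 genes, the azurophil ones, were called. In the other direction, 31.7% were called and 6 of the 10, the specific granule genes and the S100 pair. Between myelocyte-like and promyelocyte-like cells, 11.9% of 2712 genes were at least 2-fold higher in the former, among them those same 6. Of 2443 genes, 6.26% were at least 2-fold higher in Ly6g-rich than in Il1r2-rich late cells, and 4 of the 7 members tested were called: Ltf, Ngp, Camp and Lcn2. S100a8, S100a9 and Mpo were tested there and not called.

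The promyelocyte-like cells were split once more, again without the 10 genes, to see how these genes varied inside the stage. In the 77 cells of the sub-cluster led by Cd34, a marker of progenitors, whose next leading genes were matrix genes such as Col3a1, Col1a2 and Col1a1, Mpo was at 5670 CPM and Ctsg at 3292 CPM while Ltf, Ngp, Camp and Lcn2 were at 3.1, 22.3, 108 and 18.6 CPM. In the 116 cells led by Vcam1 and Srgn, Elane was at 8320 CPM and Camp at 2961 CPM. Elane was at 8395 CPM and Camp at 13863 CPM in the 50 cells led by Ube2c and Cdkn3, genes of dividing cells. In the 69 cells led by Chil3, Camp was at 23706 CPM (23410 to 24004), Ngp at 4211 CPM, Lcn2 at 604 CPM and Ltf at 36.7 CPM, while Ctsg was at 956 CPM and Mpo at 2993 CPM. The part of the matrix genes in the values of the Cd34-led cells was not tested. Camp and Ngp were thus high in cells of the Chil3-led sub-cluster that still held Elane at 5879 CPM, and Ltf was not.

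S100a8 and S100a9 also differed in the same sub-clusters. S100a8 was at 1064, 13957, 35579 and 44595 CPM in the sub-clusters led by Cd34, Vcam1, Ube2c and Chil3, in that order. S100a8 per S100a9 was 1.95 (1.80 to 2.12), 1.10, 0.954 and 0.828 (0.818 to 0.839) in the same order, and between 0.670 and 0.798 in the sub-clusters of the 3 later stages. A further sub-cluster of 54 cells was led by Ctsc, Lgals3 and Il1b and also had the monocyte markers F13a1 and Ms4a6c among its 10 leading genes. Elane was lowest there, at 2167 CPM, and Prtn3 per Elane was 2.24 (2.13 to 2.35), against 1.16 to 1.70 in the 4 sub-clusters named above. The 2 remaining sub-clusters, of 12 and 14 cells, were led by B cell genes and by globins, and the latter held 4 of 8 doublet calls of the stage.

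In the myelocyte-like cells, the azurophil UMIs were concentrated in few cells. Elane was at 1049 CPM in 59 cells led by Saa3 and S phase genes such as Cdc6 and Mcm2, and at 1010 CPM in 79 cells led by the B cell genes Vpreb3 and Ebf1, of which 9 were doublet calls. In the other 5 sub-clusters Elane was between 4.39 and 56.5 CPM. Ltf was lowest in those same sub-clusters with Elane, at 2667 and 1849 CPM, and reached 9064 CPM in the 115 cells led by Slfn4 and Retnlg. Camp per Ngp was 2.0 and 2.40 where Elane was high, and between 1.13 and 1.61 elsewhere. Prtn3 per Elane was 1.33 and 1.52 where Elane was high, and between 2.61 and 3.86 elsewhere, on 6 to 29 Elane UMIs per sub-cluster.

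Sub-clusters of the late stages differed in the specific granule genes with little difference in the S100 pair until the last. Among Ly6g-rich late cells, Ngp was at 42464 CPM in 66 cells with Fcnb and Chil3 among their leading genes, 31143 CPM in 103 cells led by Ccl3, and 16787 CPM in 101 cells led by Ccl6. S100a8 was at 82682, 75410 and 80510 CPM in the same cells. Among Il1r2-rich late cells, Ngp was at 3397, 1731 and 129 CPM in the sub-clusters led by globins (109 cells), Dbi (127 cells) and Ccl4 (164 cells). S100a8 was at 60105, 55171 and 27966 CPM there, so the 164 cells with the least Ngp also had the least S100a8.

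**Figure D2:**
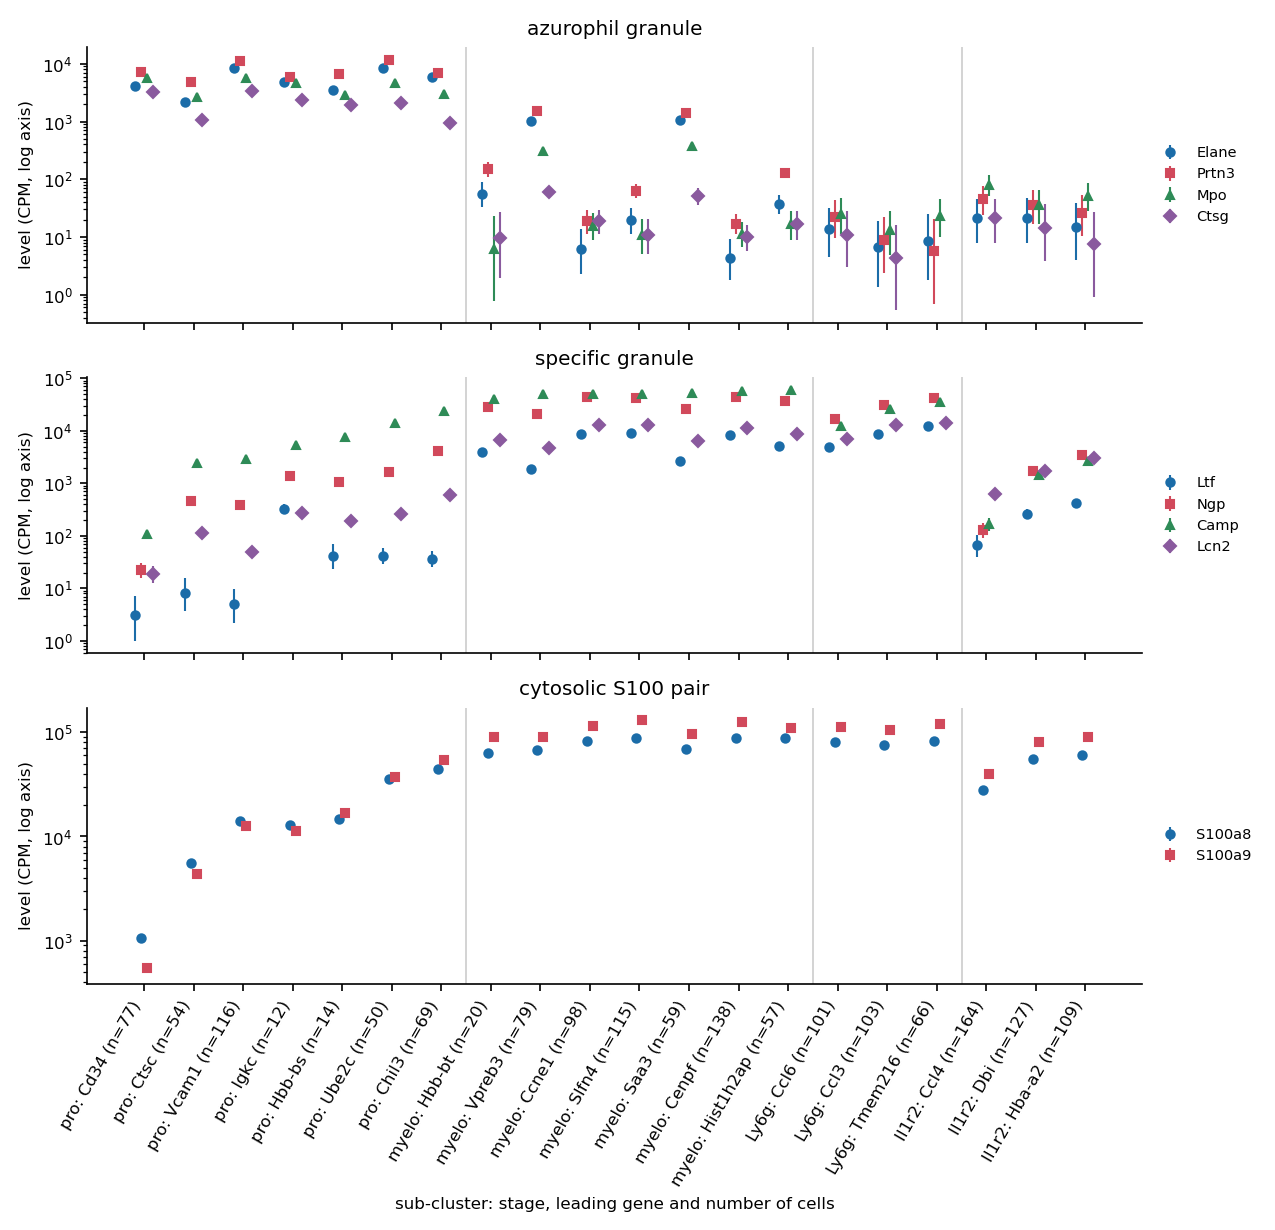
Level of each of the 10 genes in CPM on a log axis (points, with exact 95% Poisson intervals) in the sub-clusters of the promyelocyte-like (pro), myelocyte-like (myelo), Ly6g-rich late (Ly6g) and Il1r2-rich late (Il1r2) cells, each labelled with its leading gene and number of cells, placed within a stage by rising Camp level, which is not an order in time, and without a point where no UMI was counted. Camp, Ngp, Lcn2, Ltf and the S100 pair differ by more than 10-fold inside the promyelocyte-like stage. Ltf is at most at 326 CPM there, in a sub-cluster of 12 cells. Elane is above 1000 CPM in 2 of the 7 myelocyte-like sub-clusters.

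Azurophil and specific granule transcripts were found together in single cells mainly at the first stage. For these shares too, 1000 UMIs were drawn from every cell, and the cells with fewer, 4 promyelocyte-like and 4 Il1r2-rich late ones, did not enter. UMIs of both groups were found in 49.7% (44.7 to 54.8) of promyelocyte-like cells, 18.4% (15.3 to 21.8) of myelocyte-like cells, 5.56% of Ly6g-rich and 6.06% of Il1r2-rich late cells. Azurophil UMIs alone were found in 49.5% of promyelocyte-like and in 0 of 566 myelocyte-like cells, with an exact upper bound of 0.650%, or 0.530% by 3 counts of the total. The specific granule sum was at 103729 CPM in myelocyte-like cells, so a draw of 1000 UMIs could hardly miss it. With the azurophil sum at 964 CPM there, the shares of myelocyte-like cells largely restate these levels. By gene, Ltf was detected in 1.80% of promyelocyte-like and 91.2% of myelocyte-like cells, and Elane in 92.5% and 9.19%, after thinning. Without thinning these shares were 12.8% and 98.1% for Ltf and 98.5% and 26.9% for Elane. In erythroid cells thinned to the same depth, Elane was found in 0.692%, Ltf in 0.922%, any azurophil gene in 3.23%, any specific granule gene in 6.46% and both groups in 0.231%.

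The other genes of these granules were set beside the 10. Of those named here, Prss57, Chil3, Cd177 and Mmp8 are also on the marker lists by which the stages were named. Their stage was hence not independent of the naming. Of 7 other azurophil genes found at 10 CPM or more in a stage, 4 were highest in promyelocyte-like cells, among them the serine protease Prss57 (209, 43.5, 3.41 and 5.98 CPM in the order of the stages) and Ctsc, the peptidase that activates the granule proteases (153, 16.2, 13.7 and 28.7 CPM). Srgn, the proteoglycan core that packs granule proteins, was instead highest in Il1r2-rich late cells, at 6731 CPM, and Lyz2, lysozyme, in Ly6g-rich late cells, at 7742 CPM. Of 8 other specific granule genes, 5 were highest in the myelocyte-like stage, such as Chil3 (3336 CPM) and the NADPH oxidase subunit Cybb (1734 CPM), and 3 in the Ly6g-rich late stage, such as Cd177 (818 CPM). All 7 genes of gelatinase granules and secretory vesicles were highest in a late stage. Mmp8 and Mmp9 (1735 and 1950 CPM) were highest in Ly6g-rich cells. Fpr1 and Fpr2 (1021 and 482 CPM), receptors for formyl peptides, were highest in Il1r2-rich cells. The share of all genes highest in each stage was not counted. At a 2-fold difference between promyelocyte-like and pooled late cells, 3 of 7 other azurophil genes were higher early and 1 late. For other specific granule genes, 5 of 7 were higher late and 0 early, and for this last group 6 of 6 and 0. Over all genes tested, 40.1% were higher early and 31.7% late.

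Protease inhibitors and regulators of the lineage followed more than 1 pattern. Slpi, Cebpe, Csf3r and Gfi1 are likewise on the marker lists by which the stages were named. Serpinb1a, an inhibitor of elastase, cathepsin G and proteinase 3, was at 456, 747, 270 and 17.9 CPM along the stages. Slpi, which also inhibits elastase, was at 106, 104, 304 and 543 CPM. Of the 5 inhibitors listed, 1, Serpinb1a, was at least 2-fold higher in promyelocyte-like cells and 4 in pooled late cells. These 4 were Slpi and the stefins Stfa1, Stfa2 and Stfa3, which are cysteine protease inhibitors. Cebpe, the factor required for specific granules, was highest in myelocyte-like cells (610.5 CPM, against 169 CPM in promyelocyte-like cells), and Csf3r, the receptor for G-CSF, in Il1r2-rich late cells (635 CPM). Gfi1 and Cebpa were highest in promyelocyte-like cells but low there (22.4 and 10.5 CPM). Of 6 regulators at 50 CPM or more, 0 were at least 2-fold higher in the early and 3 in the late stage. All 7 cell cycle genes tested were at least 2-fold higher in the early stage. Beside these counts, 40.1% of all 3164 genes tested were called higher early and 31.7% late.

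The genes most like each group over the 30 clusters were read from the Pearson correlation of log2(CPM + 10), as a description over clusters of 1 library. For the azurophil sum they were Ms4a3 (r = 0.858), Cst7 (0.810), Prss57 (0.801), Cxcl10 (0.774) and Saa3 (0.747). Ms4a3, Cst7 and Prss57 are also on the marker list by which promyelocyte-like cells were named. For the specific granule sum they were BC100530 (0.965), Stfa1 (0.962), Gm5483 (0.951), Stfa2l1 (0.932) and Stfa3 (0.925), which belong to the stefin A group of cysteine protease inhibitors. The same 5 genes led for the S100 pair, from 0.960 (Stfa3) to 0.996 (Stfa1). Stefin genes are near-identical copies, so reads may be split among them.

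Monocyte-like cells (702 cells, median 7298.5 UMIs, 37 doublet calls) had the 10 genes at 0.833% of their UMIs. The 4 azurophil genes together were at 559 CPM (541 to 578), higher by 2.82 on the log2 scale (2.59 to 3.06) than in pooled late neutrophil-like cells. Prtn3 made up most of it, at 363 CPM (349 to 378), with Elane at 86.5, Mpo at 78.5 and Ctsg at 31.0 CPM. The value came from 1 of their 2 clusters: Prtn3 was at 462 CPM in the cluster led by Il1b, Cd14 and Cxcl2 (473 cells) and at 15.4 CPM in the cluster led by Tnf, Ccl3 and Treml4 (229 cells), where erythroid cells had 9.34 CPM. Within the former, 177 cells led by Cxcl10 and cell cycle genes such as Birc5, Tyms and Cdk1 held Prtn3 at 811 CPM and Elane at 199 CPM. In its 268 cells led by globins they were at 54.6 and 6.36 CPM. The whole azurophil value was 556 CPM after clustering again without the doublet calls, 302 CPM as a mean over cells, and 163 and 192 CPM when cells with at least 200 genes or at most 5% mitochondrial UMIs were clustered.

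The balance of neighbouring genes differed between monocyte-like cells and the pooled neutrophil-like stages. Prtn3 per Elane was 4.20 (3.83 to 4.61) in monocyte-like and 1.46 (1.44 to 1.48) in promyelocyte-like cells. In the myelocyte-like sub-clusters with little Elane it was 2.61 to 3.86, with wide intervals that include 4.20. S100a8 per S100a9 was 1.54 (1.502 to 1.57) in the Il1b-led and 0.791 in the Tnf-led monocyte cluster. In the latter, 25 of 229 cells held 95.7% of the UMIs of the 10 genes, and the ratio was 2.70 (2.23 to 3.29), with 397 and 147 UMIs, in the 204 cells with fewer than 50. In the Il1b-led cluster the ratio was 6.92 (6.18 to 7.78) in the 370 cells with fewer than 50, 1.37 in the other 103 and 4.28 (3.95 to 4.64), with 3159 and 738 UMIs, in the 268 globin-led cells. Without doublet calls it was 2.08 in the Il1b-led and 0.769 in the Tnf-led cluster. In the lineage it was 0.940, 0.724, 0.706 and 0.680 by stage, and 0.828 to 1.95 among the promyelocyte-like sub-clusters. In erythroid cells it was 0.781 (0.709 to 0.861). The S100 pair itself was at 3641 CPM for S100a8 and 2925 CPM for S100a9 in monocyte-like cells, of which 128 of 702 held 91.4% of the UMIs of the 10 genes. In the 574 cells with fewer than 50 such UMIs the pair was at 582 and 103 CPM, and in all 665 cells without doublet calls at 3009 and 1887 CPM. The same 574 cells had Prtn3 at 157 CPM and Elane at 14.1 CPM, a ratio of 11.1 (8.65 to 14.5). The specific granule genes were low in the 2 larger sub-clusters of the Il1b-led cells, with Ltf at 6.89 and 6.87 CPM, near the 6.04 CPM of erythroid cells. A sub-cluster of 20 cells, 12 of them doublet calls, led by Retnlg and BC100530, held 1556 of the 1651 Ngp UMIs there, with Ngp at 4133 CPM.

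**Figure D3:**
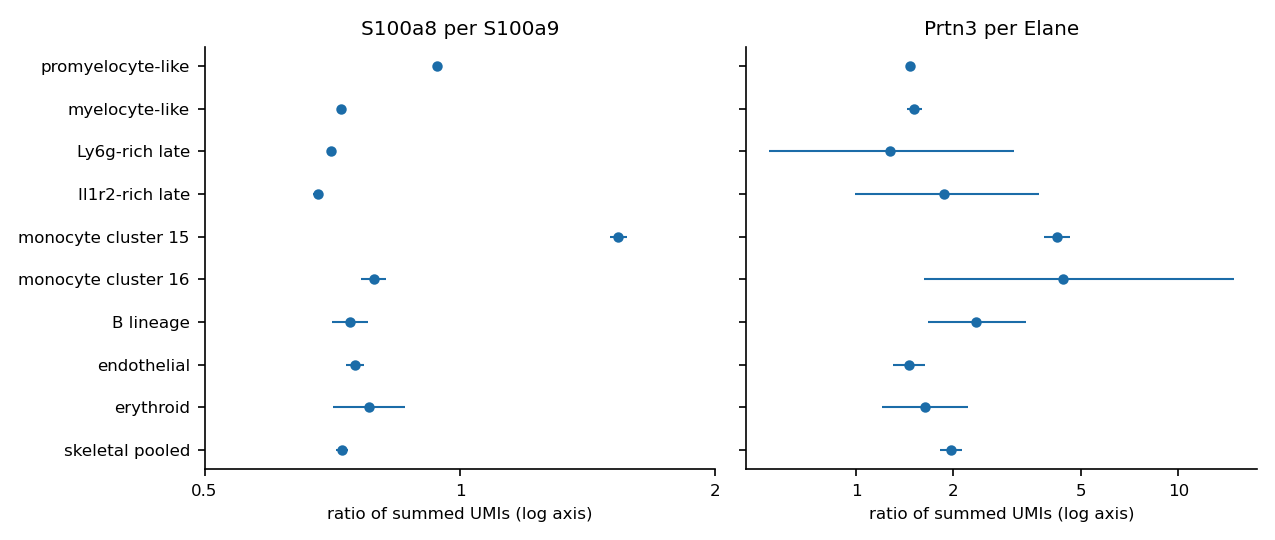
Ratio of summed UMIs of S100a8 to S100a9 (left) and of Prtn3 to Elane (right), on log axes, with exact 95% intervals. Shown are the 4 stages, the 2 monocyte clusters (15, led by Il1b, and 16, led by Tnf) and other classes. Among the classes plotted, each as a pool, S100a8 exceeds S100a9 only in monocyte cluster 15. It also does so in some promyelocyte-like sub-clusters, with a ratio of up to 1.95. Prtn3 per Elane is 4.20 in monocyte cluster 15 against 1.46 in promyelocyte-like cells. In cluster 16, 25 of 229 cells held 95.7% of the UMIs of the 10 genes. S100a8 per S100a9 was 2.70 in its 204 cells with fewer than 50 such UMIs. Cells with at least 50 such UMIs, 13 in B lineage, 28 in endothelial and 71 in skeletal cells, held 74.6%, 94.5% and 88.5% there.

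Skeletal cells (3544 chondrocyte-like, osteoblast-like, fibroblast-like and marrow stromal-like cells, median 17311.5 UMIs) had the 10 genes at 1407 CPM (1398 to 1416), or 0.141% of UMIs. All 10 genes were at least 2-fold higher in the lineage than in skeletal cells, where 21.5% of 3282 genes were. The log2 difference lay between 6.14 (Lcn2) and 7.65 (Elane). The median skeletal cell held 3 UMIs of the 10 genes. The median cell held 2 in erythroid, B lineage and endothelial cells alike, at median depths of 8405, 5159 and 8612.5 UMIs. After thinning to 1000 UMIs, 19.5% (18.2 to 20.8) of 3516 skeletal cells and 19.4% (17.3 to 21.6) of 1301 erythroid cells had a UMI of any of the 10. At this depth the share in pooled skeletal cells did not stand above that in erythroid cells. The erythroid share was not that of every other class, with 34.0% (31.3 to 36.7) in B lineage and 26.4% (23.6 to 29.4) in endothelial cells. The part of free RNA in these shares was not tested, and a pooled share does not show how single skeletal classes differed. At 5000 UMIs per cell the skeletal share was 56.3%, with 150 cells left out.

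Most of the skeletal UMIs lay in very few cells. The 71 of 3544 skeletal cells with at least 50 UMIs of the 10 genes held 88.5% of them, and 28 of these were doublet calls. In immature osteoblast-like cells, 23 of 683 cells held 95.2%, and the highest cell had 5267 UMIs, within the range of myelocyte-like cells (up to 8354). The cells below 50 held 168 CPM, against 222 CPM in erythroid cells. They were chosen by these same counts, which lowers their level. They were also deeper, with a median of 17123 against 8405 UMIs, so the 2 values are not ranked. Leaving out all doublet calls before clustering gave 644 CPM for skeletal cells. Other settings of the clustering gave 898 to 2375 CPM. In erythroid cells, no cell reached 50. Apart from these calls, the part of joined cells in the result was not tested.

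**Figure D4:**
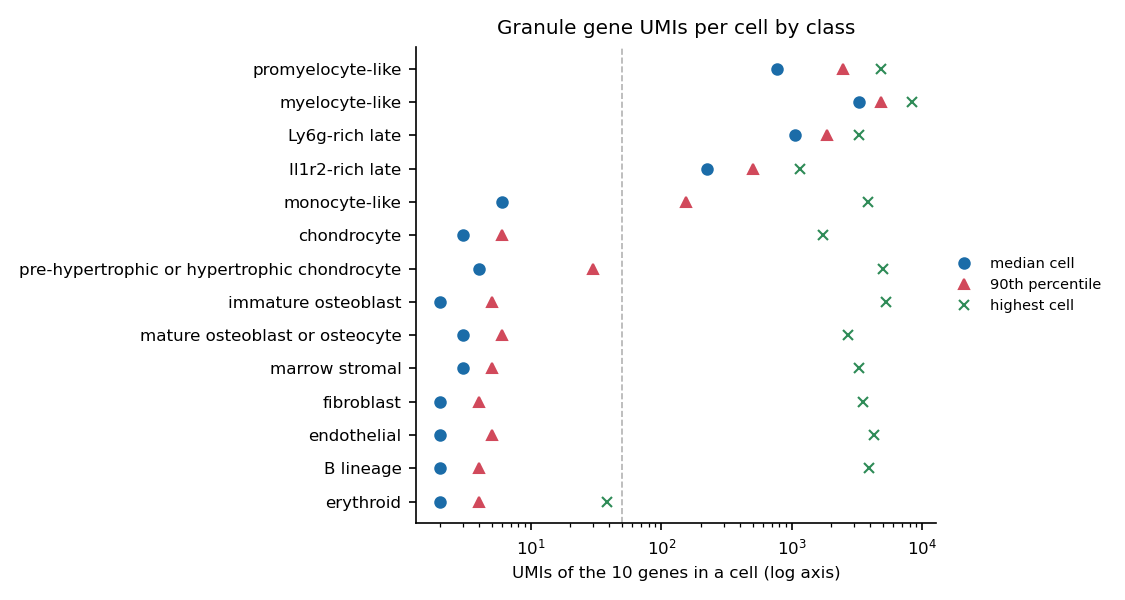
UMIs of the 10 genes per cell on a log axis, given as the median, the 90th percentile and the highest cell of each class, with the dashed line at 50 UMIs. The median lies between 224.5 and 3292 in the 4 stages and between 2 and 6 in all other classes plotted, while the highest cell holds 38 in the erythroid class and at least 1146 in every other.

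The make-up of the low counts differed from that of the whole library. Azurophil genes held 5.54% of the UMIs of the 10 genes in all kept cells, but 13.9% in erythroid, 13.5% in B lineage and 13.9% in endothelial cells, the last 2 counted in cells with fewer than 50 such UMIs. In skeletal cells below 50 the azurophil share was 11.5% (10.9 to 12.1). By skeletal class it ran from 6.42% in pre-hypertrophic or hypertrophic and 9.87% in other chondrocyte-like cells to 16.4% in immature osteoblast-like and 22.2% in marrow stromal-like cells. Lcn2 alone held 37.5% in the pre-hypertrophic or hypertrophic class, against 1.71% to 3.3% in the other skeletal classes. Prtn3 held 9.11% in immature osteoblast-like and 10.2% in marrow stromal-like cells, against 2.49% to 4.67% in the others and 4.21% in erythroid cells. Its level there was 19.2 and 26.8 CPM, against 4.6 to 8.8 CPM in the others and 9.34 CPM in erythroid cells. In promyelocyte-like cells the azurophil share was 32.4% and in myelocyte-like cells 0.326%.

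In both chondrocyte-like clusters a few cells carried most of the Mpo. In the 892 cells led by Ucma, Mpo was at 42.1 CPM (39.0 to 45.4) and Ctsg at 13.6 CPM, with Mpo per Elane at 9.53 (7.44 to 12.4), against 0.799 in promyelocyte-like cells and 2.18 in erythroid cells. Of all chondrocyte-like cells, 10 had at least 50 UMIs of the 10 genes, 6 of them doublet calls, and these 10 held 651 of 838 Mpo UMIs. In the Ucma-led cluster, 8 such cells held 550 of 667 Mpo UMIs. In the other cluster, of 715 cells led by Il17b, 2 such cells held 101 of 171. Mpo per Elane was 1.71 (1.145 to 2.575) in the remaining 713 of these Il17b-led cells. In the 884 cells of the Ucma-led cluster with fewer than 50, Mpo was at 7.54 CPM and Mpo per Elane at 2.79 (1.94 to 4.06), and the interval of this ratio overlapped that of erythroid cells (1.64 to 2.93).

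Lcn2 stood apart in 1 skeletal cluster. In the 118 cells of the cluster led by Col10a1, the gene of hypertrophic chondrocytes, Lcn2 was at 710 CPM (683 to 737), while it was between 3.904 and 111 CPM in the other 7 skeletal clusters. Lcn2 per Ngp was 1.77 (1.66 to 1.89) there and between 0.183 and 0.343 in the others, against 0.265 in myelocyte-like, 0.381 in Ly6g-rich late and 1.03 in Il1r2-rich late cells. None of the 118 cells was a doublet call. Other granule genes were not absent from this cluster, with Ngp at 401 CPM and Camp at 540 CPM, and 22 of its cells held 93.9% of the UMIs of the 10 genes.

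To set aside cells with other granule transcripts, Lcn2 was counted in cells without a UMI of Ltf, Ngp or Camp. In the Col10a1-led cluster, 48 of 118 cells were without them, and 32 of these 48 (66.7%) had Lcn2, with 616 UMIs in all, at most 108 in a cell, and a level of 509 CPM (470 to 551). Cells chosen in the same way had Lcn2 at 3.33 to 11.1 CPM in the other 7 skeletal clusters, 5.28 CPM in erythroid and 5.47 CPM in endothelial cells. The highest of these skeletal values, 11.1 CPM (7.19 to 16.4), was that of the cluster led by Ihh, the prehypertrophic one. Depth moved with this result, since the median of the chosen cells was 28080 UMIs in the Col10a1-led and 29645 UMIs in the Ihh-led cluster, against 8925 to 23876 in the other skeletal clusters. Inside the Col10a1-led cluster, 22 cells led by the metallothioneins Mt2 and Mt1 had Lcn2 at 1325 CPM (1241 to 1414) with Ngp at 7.23 CPM, and 44 cells led by Ibsp had 540 CPM with Ngp at 33.4 CPM. In the 52 cells led by Stfa1 and Lyz2, both genes of myeloid cells, Ngp was at 760 CPM and Lcn2 at 589 CPM.

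**Figure D5:**
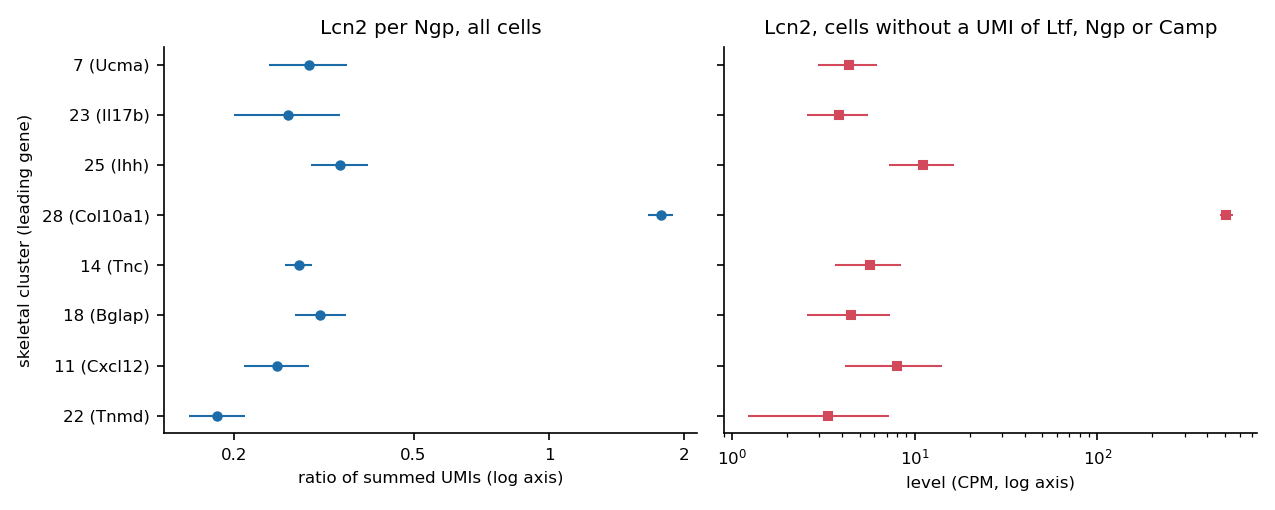
Lcn2 in the 8 skeletal clusters, each with its leading gene, on log axes with exact 95% intervals: UMIs of Lcn2 per UMI of Ngp in all cells (left) and the level of Lcn2 in cells without a UMI of Ltf, Ngp or Camp (right). The Col10a1-led cluster is at 1.77 and 509 CPM, and the other clusters are at or below 0.343 and 11.1 CPM.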

How the data were processed

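Cells of 2 tibiae of 1 mouse at postnatal day 6 were captured with the 10x method, and the authors counted 4 sequencing entries as 1 library. The authors aligned the reads to mm10, to which tdTomato and WPRE sequences were added, and deposited raw UMI counts from Cell Ranger 3.1.0. Their processing notes also name Seurat 3. Which annotation release they used was not given in the sources used here, and the P56 sample was not analysed here. Counting 3′ transcript ends by UMI needs no length correction, but it does not separate near-identical copies.

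The 10 genes, the gene lists and the marker lists were chosen with earlier results of these data known. Barcodes with at least 500 genes and at most 10% mitochondrial UMIs were kept, since the 1600 genes of the study would have removed late neutrophils. Clusters were made in scanpy 1.11.5 (Python 3.11.15, igraph 0.11.9, scikit-learn 1.9.0, pandas 2.3.3, numpy 2.4.6, anndata 0.12.19, scipy 1.17.1, matplotlib 3.10.9; seed 1) by the Leiden method at resolution 1 on 20 neighbours in 30 principal components. These came from 2000 variable genes found in at least 3 cells, without the 10 genes, on log values after each cell was brought to a total of 10000. Sub-clusters used 15 neighbours at resolution 0.6, or 0.4 for single clusters outside the lineage. A cluster was named from the list, of 22, with the highest mean z-score, unless another list had at least 2 more markers among its 10 leading genes by fold with 10 CPM added. A name needed 3 markers at 10 CPM and, without a marker among the leading genes, a mean z of 1 or more, and a late neutrophil name also Retnlg among the leading genes. The override, the Retnlg condition, the sub-clusters, the limit of 50 UMIs and the ratios in cells below it or without doublet calls were decided on once the clusters were known, as was leaving unnamed the clusters with over 50% doublet calls. This left 5 clusters with 437 cells unnamed. Scrublet, at an expected rate of 10%, marked 588 barcodes (4.15%), of which 484 were kept, and they were left out in an alternative. Names given here were rebuilt, so they may not match the study's.

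A level (CPM) is the UMI sum of a gene in a class per 1000000 UMIs there, with an exact Poisson interval, shares carry exact Clopper-Pearson intervals, and ratios carry exact conditional binomial intervals, all at 95%. They cover counting error only, and cells were not treated as replicates. The ratio step was tested on simulated data. Named genes are the 10, up to 4 genes of each list, the 5 genes most like each group and the leading genes of classes. Among lists, gene calls needed 50 CPM in either class.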

Additional observations from a re-analysis of the deposited data

Results flagged for a closer look

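Among barcodes that were left out for having under 500 genes but had at most 10% mitochondrial UMIs (648 barcodes, median 1372 UMIs), 11 held at least 10% of their UMIs in the 10 granule genes. These barcodes enter none of the main comparisons, and those with at least 200 genes enter only the alternative with that limit. The 11 were picked by this share, so their level is no result. The 648 barcodes as a whole had the 10 genes at 0.129% of UMIs, against 0.0222% in erythroid cells. Of the 1555 barcodes with at least 500 genes but over 10% mitochondrial UMIs, 24 held as much.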

How the results depend on the processing

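None of the 3 differences between stages changed sign under any alternative that gave a value, but most values changed by more than their counting interval. The other 3 results are levels or a share, with no direction. The causes were not tested. The class with the highest level changed in some settings for Ctsg, Ltf, Lcn2, S100a8 and S100a9, and in none of those run for Elane, Prtn3, Mpo, Ngp and Camp. The azurophil difference between promyelocyte-like and late cells (8.02, log2) was 7.78 with the 10 genes left out of the totals, 7.72 as a mean over cells and 7.77 with at least 200 genes. It was 8.80 and 7.36 with only Ly6g-rich or only Il1r2-rich late cells, a choice made after seeing the data. The specific granule difference between myelocyte-like and promyelocyte-like cells (3.64) was, in the same first 3 settings, 4.05, 3.54 and 3.78. The S100 difference between late and promyelocyte-like cells (2.22) was 2.46, 1.84 and 2.37 in them, and 2.47 and 1.76 with either late cluster alone.

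Other cell filters and clusterings moved both of the latter. At most 5% mitochondrial UMIs gave 2.18 and 1.06, at most 20% gave 3.75 and 2.31, resolution 0.6 gave 3.595 and 2.17, resolution 1.5 gave 3.27 and 1.83, 3000 variable genes gave 3.16 and 1.97, the 10 genes among the variable genes gave 3.38 and 2.03, and no doublet calls gave 3.81 and 2.30. With at least 1600 genes the specific granule value was 3.82, and no late cluster was left, so the azurophil and S100 differences had no value.

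The azurophil level in monocyte-like cells (559 CPM) and the level of the 10 genes in skeletal cells (1407 CPM) were 302 and 1239 CPM as means over cells, 536 and 1393 with at least 1600 genes, 163 and 947 with at least 200 genes, 192 and 1664 with at most 5% and 528 and 942 with at most 20% mitochondrial UMIs, and 517 and 898 with the 10 genes among the variable genes. The monocyte value was also 509 at resolution 1.5 and 708 in the Il1b-led cluster alone, chosen after seeing the data. The skeletal value was also 2375 at resolution 0.6, 941 with 3000 variable genes, 644 without doublet calls and, chosen after seeing the data, 168 in cells with fewer than 50 UMIs of the 10 genes. The skeletal share with a UMI went from 19.5% to 56.3% at 5000 UMIs per cell.

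No paired analysis was possible because the 4 sequencing entries held 1 library of 1 mouse. Depth limits the azurophil values of late cells, which rest on few UMIs.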

Other observations

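Azurophil genes were also found outside the neutrophil and monocyte classes, in a cluster of 320 cells that tied between the basophil or mast cell and the plasmacytoid dendritic cell lists and was split into 5 sub-clusters. In 34 cells led by Prss34 and Mcpt8, proteases of basophils, Ctsg was at 1061 CPM (974 to 1153) and Mpo at 976 CPM (893 to 1065), while Elane was at 3.87 CPM (2 UMIs), near the 5.72 CPM of erythroid cells. In 69 cells led by Prg2, an eosinophil granule gene, Mpo was at 2404 CPM, Prtn3 at 1660 CPM, Ctsg at 927 CPM and Elane at 213 CPM. Stefins and Retnlg were also among the leading genes of these 69 cells, Ngp was at 813 CPM, and 4 of them were doublet calls. In 54 cells led by globins, Ctla2a and Hlf, Mpo was at 460 CPM, Prtn3 at 212 CPM and Elane at 4.93 CPM.

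Prtn3 was also found with few Elane UMIs in this cluster. Prtn3 per Elane was 43.0 (172 and 4 UMIs) in those 54 cells and 31.5 (63 and 2 UMIs) in the 34 Prss34-led cells. In 71 cells led by class II genes such as H2-Eb1, Prtn3 was at 322 CPM with 281 UMIs, against 4 UMIs of Elane. In 92 cells led by Ccr9 and Siglech, Prtn3 was at 125 CPM with 125 UMIs, against 2 UMIs of Elane. Prtn3 per Elane was 70.3 (27.1 to 260) and 62.5 (16.9 to 522) in these cells, against 1.46 in promyelocyte-like cells and 1.63 in erythroid cells.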
